A study of Homo sapiens with 8 samples.

Results

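RGS1, RGS2, RGS3, RGS10, RGS14, RGS16 and RGS19 encode regulators of G protein signalling, and their messenger RNA was followed over 4 treatments of the leukemia line CUTLL1. The genes were taken as a named list, and every probe set annotated to exactly 1 of them was used: 17 of the 54675 probe sets on the array, lying on 7 of the 19775 genes tested. CUTLL1 is an established human line of T-cell acute lymphoblastic leukemia that grows with an active NOTCH1 pathway. It was cultured for 48 h with DMSO as vehicle, with 1 microM PF-03084014, with 1 microM dexamethasone, or with both compounds at 1 microM each (the combination), on 2 Affymetrix GeneChip arrays per group. PF-03084014 inhibits gamma-secretase, the protease whose cut releases the active part of NOTCH receptors. Dexamethasone is a synthetic glucocorticoid that acts through the glucocorticoid receptor. All groups come from 1 cell line, and nothing in the labels tells whether a group's arrays are independent cultures, and the p-values cover the variation among these arrays alone, which may be technical. The series compared the compounds to find the expression signature of each and of both together.

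Receptors coupled to G proteins, among them the chemokine receptors that steer T cells, make a G alpha subunit exchange GDP for GTP. RGS proteins share a domain that binds active G alpha and speeds the hydrolysis of its GTP, which shortens the signal. RGS1, RGS2, RGS3 and RGS16 belong to one subfamily of the family, RGS10 and RGS14 to another, and RGS19, also called GAIP, to yet another. In lymphocytes RGS1 and RGS16 are known to limit migration toward chemokines, and RGS2 is known for its preference for G alpha subunits of the Gq class.

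RGS1 and RGS2 lie close together on chromosome 1. In the RefSeq gene order of GRCh38.p14 the protein-coding genes there run RGS18, RGS21, RGS1, RGS13 and RGS2, with no other protein-coding gene between them. The 250 bases before the start of RGS1, of RGS2 and of RGS14 are shown to let their make-up be compared. RGS1 and RGS2 were both lower in the combination, and RGS14 was higher. RGS3 was lower there too, has several listed starts, and its windows are not shown. Sequences are from RefSeq, GRCh38.p14, all on the plus strand, at chr1:192575523-192575772 for RGS1, chr1:192808789-192809038 for RGS2 and chr5:177357674-177357923 for RGS14. Capitals mark matches on either strand to 5 motifs. TGGGAA is the core bound by RBPJ, the DNA-binding partner of NOTCH. AGAACA is one arm of the glucocorticoid receptor site, and TGACG is a part of the cyclic AMP response element. The others were the TATA box TATAAA and the box CCAAT, and no match overlapped another in the windows shown.
RGS1: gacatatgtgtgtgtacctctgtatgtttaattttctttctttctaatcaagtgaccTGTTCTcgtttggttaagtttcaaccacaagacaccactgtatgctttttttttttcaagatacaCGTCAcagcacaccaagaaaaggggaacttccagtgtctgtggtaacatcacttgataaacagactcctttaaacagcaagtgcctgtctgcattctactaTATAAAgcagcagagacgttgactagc
RGS2: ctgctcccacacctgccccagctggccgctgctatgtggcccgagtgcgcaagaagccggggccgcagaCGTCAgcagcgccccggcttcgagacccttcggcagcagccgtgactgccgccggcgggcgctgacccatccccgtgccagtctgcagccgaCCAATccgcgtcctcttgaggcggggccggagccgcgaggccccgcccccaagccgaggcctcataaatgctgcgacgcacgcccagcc
RGS14: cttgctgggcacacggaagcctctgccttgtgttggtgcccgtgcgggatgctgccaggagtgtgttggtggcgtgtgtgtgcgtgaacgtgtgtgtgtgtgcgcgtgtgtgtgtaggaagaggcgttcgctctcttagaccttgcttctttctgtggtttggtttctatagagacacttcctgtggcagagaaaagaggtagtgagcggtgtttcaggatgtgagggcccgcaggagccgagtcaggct
The window of RGS1 had 39.2% G and C, that of RGS2 72.8% and that of RGS14 56.8%, against a median of 58.0% over 34943 promoters. RGS1 held AGAACA on the opposite strand 193 to 188 bases before the start, TGACG on the opposite strand at 128 to 124 and TATAAA at 27 to 22. RGS2 held TGACG on the opposite strand at 181 to 177 and CCAAT at 89 to 85, and RGS14 held none of the motifs searched. TGGGAA was in none of these windows. Of all promoter windows of this length, 20.86% held TGGGAA, 12.42% AGAACA, 21.18% TGACG, 10.75% TATAAA and 32.04% CCAAT. Over the 13 starts listed for the 7 genes, the counts were 2, 3, 3, 2 and 3, and both matches to TGGGAA lay at starts of RGS3.

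The second combination array stood apart from the rest, with a median intensity of 76.3 against 61.8 to 63.9 on the other 7, so the combination differences printed for the brightest probe set of each RGS gene, and for the other genes named, are also given without it. All 10 T-lineage markers, CD3D and CD3E among them, read above 100 on every array, and their summed intensity was 43289 to 45457 outside the combination and 43390 and 49659 in it. Of the B-lineage, myeloid, and erythroid and megakaryocyte markers, 2 of 6, 1 of 6 and 1 of 5 read above 100 on every array. The B-lineage sum was 842 to 955 outside the combination and 1032 and 1428 in it, and the myeloid sum 440 to 637 against 359 and 485. The sum for erythroid and megakaryocyte markers was 294 to 397 outside the combination and 286 and 522 in it, and no marker of these lists was at the intensity floor of 16 on every array. The 3' to 5' signal ratio of ACTB, a measure of RNA integrity, was 1.82 to 2.26 outside the combination and 1.84 and 2.27 in it. The part of these shifts in the results below was not tested. The NOTCH targets DTX1, NRARP and HES1 fell with PF-03084014, with log2 differences of -2.18, -2.66 and -1.74, and with dexamethasone the glucocorticoid receptor targets TSC22D3 and FKBP5 rose by 3.34 and 0.68 (limma, adjusted p = 0.0205 or lower for the falls and 0.0466 or lower for the rises).

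RGS1 stood out among the 7 genes with PF-03084014. Its brightest probe set, 216834_at, read 819.9 and 749.95 with DMSO, 212 and 182 with PF-03084014, 809.5 and 799 with dexamethasone, and 364 and 263 with the combination. Both arrays of each group with PF-03084014 therefore lay below every array without it, and the combination arrays lay above those with PF-03084014 alone. The dexamethasone arrays lay within the range of the DMSO arrays.

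On the log2 scale, with values under 16 set to 16, RGS1 stood at 9.62 ± 0.091 with DMSO (mean ± SD, n = 2), 7.62 ± 0.16 with PF-03084014, 9.65 ± 0.014 with dexamethasone and 8.27 ± 0.33 with the combination. With PF-03084014 RGS1 fell by 1.99 log2 units, a 3.99-fold decrease (SE 0.17, 95% confidence interval -2.43 to -1.56, limma adjusted p = 0.0201). It was the 1 member called there at an adjusted p under 0.05, a threshold passed by 0.819% of all genes and, among falls alone, by 0.349%. This call ended without any 1 of the 6 arrays outside the combination, with values of -2.11 to -1.88, and it held without either combination array. Leaving out any of those 6 left far fewer of all genes called, so the loss is not particular to RGS1. Among the other settings only a shift of all arrays to 1 median (limma adjusted p = 0.0667) and a fit of only the groups compared (0.119) ended the call.

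The other probe sets of RGS1 were much dimmer and moved the same way. Probe set 202988_s_at read 151 and 136 with DMSO, 59.0 and 31.0 with PF-03084014, 145 and 149.8 with dexamethasone, and 49.1 and 69.5 with the combination. Probe set 202989_at read 33.2 and 46.7, then 14.8 and 25.7, then 36.1 and 36.5, and last 18.9 and 11.7 in the same order, close to the array background, where 27 probe sets for bacterial genes had medians of 18.6 to 23.4. In both, the arrays with PF-03084014 lay below all arrays without it. In the fit over all probe sets their differences with PF-03084014 were -1.75 (SE 0.35, limma adjusted p = 0.164) and -0.96 (SE 0.28, adjusted p = 0.300), and neither was called.

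With dexamethasone alone RGS1 differed from DMSO by 0.036 log2 units (95% confidence interval -0.39 to 0.47, limma adjusted p = 1), and by -0.014 when its probe sets were averaged. With the combination it fell by 1.34 against DMSO (SE 0.17, adjusted p = 0.0110) and by 1.38 against dexamethasone (SE 0.17, adjusted p = 0.0187). Without the second combination array these differences were -1.11 (adjusted p = 0.0176) and -1.15 (adjusted p = 0.0314). The call against DMSO ended without the first DMSO array (-1.28) or the second (-1.41). The call against dexamethasone ended without either PF-03084014 or either dexamethasone array (-1.39 to -1.37). All these fits called far fewer of all genes than the fit of all arrays. The combination lay 0.65 above PF-03084014 (95% confidence interval 0.22 to 1.08, adjusted p = 0.133), which was not called. That difference was 0.89 without the second combination array (adjusted p = 0.0526) and 0.42 without the first (adjusted p = 0.0782). For the other probe sets it was 0.45 and -0.22 on all arrays, and 0.20 and -0.10 without the second combination array.

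RGS2 read lower in all 3 treatments. Its single probe set, 202388_at, read 1299 and 1058 with DMSO, 731 and 679 with PF-03084014, 765.5 and 773 with dexamethasone, and 668 and 545 with the combination. No treated array reached the lower DMSO array, and the DMSO arrays differed more between themselves than those of either single compound. The log2 means were 10.20 ± 0.21 with DMSO, 9.46 ± 0.076 with PF-03084014, 9.59 ± 0.0100 with dexamethasone and 9.24 ± 0.21 with the combination (mean ± SD, n = 2).

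With PF-03084014 the difference of RGS2 from DMSO was -0.73 (SE 0.14, 95% confidence interval -1.08 to -0.39, limma adjusted p = 0.0974), and it was not called. Leaving out genes with a mean intensity under 100, or replacing the floor by a pseudocount of 16, brought it past the threshold (adjusted p of 0.0240 and 0.0288), with values of -0.73 and -0.72. With dexamethasone it was -0.61 (SE 0.14, 95% confidence interval -0.95 to -0.26, adjusted p = 0.294) and was not called. In the combination RGS2 fell by 0.96 log2 units, a 1.94-fold decrease (SE 0.14, 95% confidence interval -1.30 to -0.61, adjusted p = 0.0146). Without the second combination array the fall was 0.81 (adjusted p = 0.0421), and without the first DMSO array the difference was -0.81 and the call ended (adjusted p = 0.0636). Against the single compounds the combination stood at -0.22 (PF-03084014, adjusted p = 0.444) and -0.35 (dexamethasone, adjusted p = 0.188). These were -0.077 and -0.20 without the second combination array, and -0.37 and -0.50 without the first, and none was called.

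RGS3, which encodes a longer member of the subfamily with several isoforms, was lower in the combination. Probe set 203823_at read 784.2 and 784.5 with DMSO, 728 and 679 with PF-03084014, 809.9 and 772 with dexamethasone, and 593 and 529.6 with the combination. Both combination arrays lay below all 6 others. RGS3 fell in the combination by 0.48 log2 units against DMSO, a 1.40-fold decrease (SE 0.074, limma adjusted p = 0.0174), and by 0.50 against dexamethasone (SE 0.074, adjusted p = 0.0263). With the second combination array left out these were -0.40 (adjusted p = 0.0338) and -0.41 (adjusted p = 0.0464). The call against DMSO ended without either DMSO array (adjusted p of 0.0866 and 0.0867) or either dexamethasone array (0.0506 and 0.0503), with a difference of -0.48 in each case. The call against dexamethasone ended without any single array of DMSO, PF-03084014 or dexamethasone (-0.53 to -0.46). Those fits called far fewer of all genes than the fit of all arrays.

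With the single compounds RGS3 differed from DMSO by -0.16 (PF-03084014, SE 0.074, limma adjusted p = 0.468) and 0.012 (dexamethasone, SE 0.074, adjusted p = 1), neither of them called. A second probe set, 220300_at, read 72.3 and 51.3 with DMSO, 38.4 and 46.4 with PF-03084014, 59.2 and 55.7 with dexamethasone, and 26.2 and 27.5 with the combination. In the fit over all probe sets in the combination it fell by 1.18 (SE 0.21, adjusted p = 0.0382), and without the second combination array the difference was -1.21 (adjusted p = 0.0941, not called). The third probe set, 232223_at, read 11.8 to 27.1 over all arrays, at the level of background.

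RGS14 was the 1 member called higher in the fit of all arrays. It encodes a scaffold protein that also binds RAP and RAS proteins and inactive G alpha subunits of the Gi class. Probe set 38290_at read 1555 and 1521.5 with DMSO, 1909 and 1844 with PF-03084014, 1852 and 1737 with dexamethasone, and 2089 and 2179 with the combination. All treated arrays lay above both DMSO arrays, and both combination arrays lay above all others. The log2 means were 10.59 ± 0.022, 10.87 ± 0.035, 10.81 ± 0.065 and 11.06 ± 0.043 in this order (mean ± SD, n = 2). In the combination RGS14 rose by 0.47 log2 units, a 1.39-fold increase (SE 0.048, 95% confidence interval 0.35 to 0.59, limma adjusted p = 0.00638).

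The call of RGS14 against DMSO held with each of the 8 arrays left out, and the rise was 0.44 without the second combination array (limma adjusted p = 0.0213). It ended with the arrays shifted to 1 median (0.37, adjusted p = 0.0514), with the mean of all probe sets of the gene (0.29, 0.148) and with only the compared groups in the fit (0.104). RGS14 stood at 0.29 with PF-03084014 (SE 0.048, adjusted p = 0.0797) and 0.22 with dexamethasone (SE 0.048, adjusted p = 0.277), and neither was called. Against dexamethasone the combination was higher by 0.25 (SE 0.048, adjusted p = 0.0448). That call ended without any array other than the first combination array (0.20 to 0.30), including the second combination array (0.22). Those fits called fewer of all genes than the fit of all arrays. With a replicate block the call ended too (0.25, limma adjusted p = 0.0609). It also ended with the arrays shifted to 1 median (0.13, adjusted p = 0.333) and with the probe sets averaged (0.061, adjusted p = 0.754). With the difference still at 0.25 it ended with a pseudocount of 16 (adjusted p = 0.0730), without the intensity trend (0.0916), without _x_at and _s_at probe sets (0.0506) and with only the groups compared (0.203). Probe set 204280_at read 88.2 and 94.7 with DMSO and 113 to 130.2 on the 6 treated arrays, all of them above DMSO, and its combination difference was 0.46 (adjusted p = 0.0761). Probe set 211021_s_at read 25.6 to 37.8 with no separation of the groups.

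RGS10, RGS16 and RGS19 were not called in any of the 6 comparisons. RGS10, a short protein made of little more than the RGS domain, read 3848 and 3847 on probe set 204319_s_at with DMSO, 3967 and 4118 with PF-03084014, 4373 and 4196 with dexamethasone, and 4186 and 3888 with the combination. All treated arrays lay above both DMSO arrays, by small amounts. The difference from DMSO was 0.15 with dexamethasone (95% confidence interval 0.030 to 0.28, limma adjusted p = 0.445), 0.071 with PF-03084014 (-0.053 to 0.20) and 0.068 with the combination (-0.056 to 0.19), the last of which was -0.030 with the arrays shifted to 1 median. Without the second combination array it was 0.12 (adjusted p = 0.153), and without the first 0.015. Probe set 204316_at stood at 0.42 with dexamethasone (adjusted p = 0.583), reading 169 and 189 with DMSO against 223 and 255. Probe set 214000_s_at read 119.7 to 187 over all arrays with no separation of the groups.

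RGS19, which acts on G alpha subunits of the Gi class, read 1599 and 1652 on its single probe set with DMSO, 1819.5 and 1876 with PF-03084014, 1922 and 1886 with dexamethasone, and 1751 and 2275 with the combination. The treated arrays again lay above both DMSO arrays, and the combination arrays differed most, with an SD of 0.27 on the log2 scale against 0.019 to 0.034 in the other groups. The difference from DMSO was 0.19 with PF-03084014 (95% confidence interval -0.12 to 0.49), 0.23 with dexamethasone (-0.076 to 0.53) and 0.30 with the combination (-0.0080 to 0.60, limma adjusted p = 0.185). Without the second combination array the last was 0.11, and without the first it was 0.49. Against PF-03084014 and dexamethasone the combination stood at 0.11 and 0.068, and without its first array at 0.30 and 0.26. Without its second array both turned sign, to -0.077 and -0.12. RGS19 passed the threshold only in the fit without the first combination array, which called far more of all genes than the fit of all arrays.

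RGS16 was dim. Its brightest probe set, 209324_s_at, read 106 and 90.8 with DMSO, 98.1 and 84.6 with PF-03084014, 111 and 87.4 with dexamethasone, and 75.2 and 77.4 with the combination. Both combination arrays lay below all others, and the difference from DMSO was -0.36 (95% confidence interval -0.85 to 0.12, limma adjusted p = 0.284), or -0.39 without the second combination array (adjusted p = 0.381). Probe set 209325_s_at gave another pattern, with 50.8 and 50.4 with DMSO, 58.9 and 52.7 with PF-03084014, 33.0 and 32.3 with dexamethasone, and 50.2 and 53.1 with the combination. Only its dexamethasone arrays stood below the rest, by 0.63 log2 units against DMSO (SE 0.13, adjusted p = 0.322 over all probe sets), which was not called. Probe set 242212_at read 25.6 to 55.1 with overlapping groups.

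**Figure D1:**
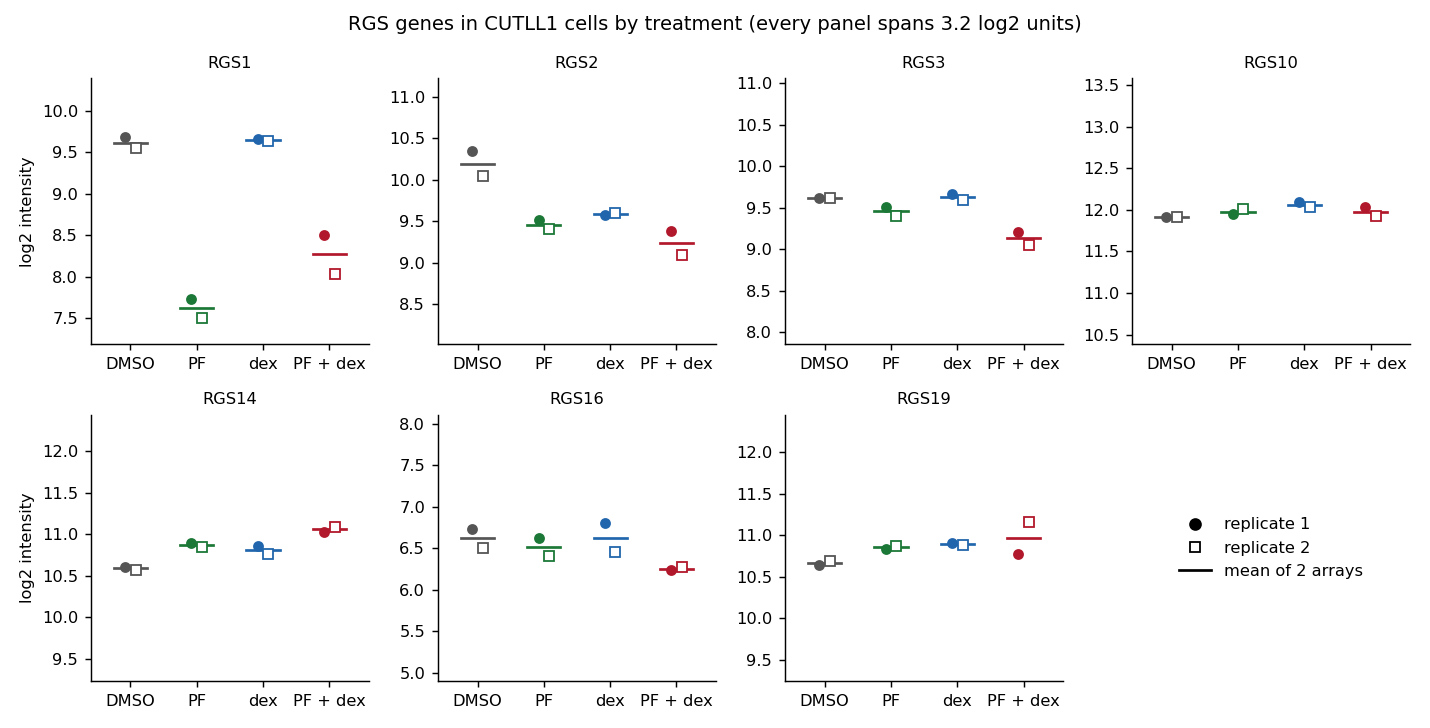
Log2 intensity of the brightest probe set of each RGS gene (vertical axis) on both arrays of each treatment (horizontal axis; PF, PF-03084014; dex, dexamethasone), with circles for the first and squares for the second array and a line at the mean. RGS1 is low in both groups with PF-03084014, RGS2 is below DMSO in every treatment, RGS3 is lowest and RGS14 highest in the combination, and RGS10 changes little.

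**Figure D2:**
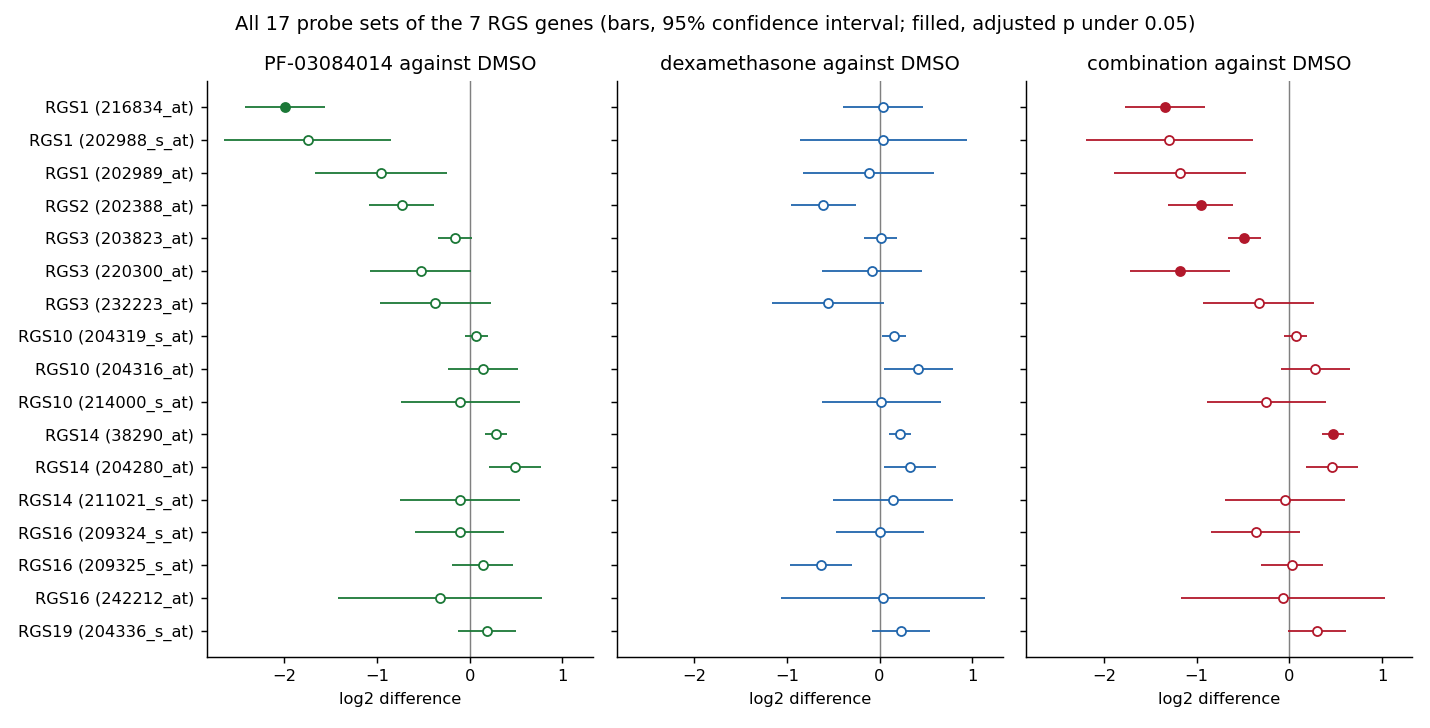
Log2 difference from DMSO (horizontal axis) of all 17 probe sets with PF-03084014, dexamethasone and the combination; bars are 95% confidence intervals of the limma fit over all probe sets, and filled points have an adjusted p under 0.05. The 3 probe sets of RGS1 lie below 0 in both panels with PF-03084014 and near 0 with dexamethasone, and 5 probe sets are filled in the combination panel.

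With dexamethasone alone 0 of the 7 genes were called by limma, and 3 had an unadjusted p under 0.05, namely RGS2, RGS10 and RGS14. Over all genes 0.101% were called and 8.96% had an unadjusted p under 0.05. The median difference of the 7 genes was 0.036, against 0.014 over all genes. With PF-03084014 it was -0.11 against 0.018. With both compounds 4 of the 7 genes were called, 3 lower and 1 higher, where 11.9% of all genes were called, 5.52% lower and 6.42% higher. The median of the 7 genes in the combination was -0.36, and that of all genes 0.064. In the fit over all probe sets, those called in the combination lay on RGS1, RGS2, RGS3 (with 2, of which 220300_at was near background) and RGS14. They were 5 of the 17, where 7.95% of all probe sets were called. That count fell without any 1 array other than the first combination array, as did the number of all genes called in the gene fit. With PF-03084014 the fit over all probe sets called 1 of the 17, where 0.394% of all were called, and with a replicate block it called 0. That 1 call also ended without any 1 array outside the combination, where the gene fit called far fewer of all genes. With the arrays shifted to 1 median the call of RGS3 ended too (-0.58, limma adjusted p = 0.0761), and those of RGS1 and RGS2 held. A fit of only the combination and DMSO arrays ended all 4 (adjusted p of 0.104 to 0.151) and called 0 of all genes. The replicates of the combination varied more than the others, with an SD of the log2 difference between arrays of 0.548 against 0.325 to 0.361, and the fit pools 1 spread over the 4 groups.

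When the combination was set against dexamethasone, 3 members were called, RGS1 and RGS3 lower and RGS14 higher, where 7.23% of all genes were called, 3.97% lower and 3.26% higher. The fit over all probe sets called 2 of the 17 here, on RGS1 and RGS3, where 3.84% of all were called. That count rose without the first combination array and fell without any other array, as did the number of all genes called in the gene fit. In the gene fit the calls of RGS1 and RGS3 against dexamethasone ended with the arrays shifted to 1 median (-1.49 and -0.61, limma adjusted p of 0.0531 and 0.0925), that of RGS3 also with its probe sets averaged (-0.46, adjusted p = 0.0977), and both with only the groups compared in the fit (0.141 and 0.164). When it was set against PF-03084014, limma called 0 members and 2.84% of all genes, and 3 members had an unadjusted p under 0.05, RGS1 (0.65), RGS3 (-0.33) and RGS14 (0.19), where 18.7% of all genes had one. RGS14 stood at 0.16 (adjusted p = 0.234) without the second combination array. RGS3 had a limma adjusted p of 0.101. Its difference was -0.41 without the first combination array and -0.24 without the second. It passed the threshold without the first, in a fit that called far more of all genes than the fit of all arrays. For messenger RNA from a whole culture, fewer cells expressing a gene and less RNA per cell cannot be told apart.

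The test of the departure from additivity asks whether the combination differs from the sum of the single differences. The sum for RGS1 was -1.96 and the combination stood at -1.34, so the interaction was 0.62 (95% confidence interval 0.0078 to 1.23, unadjusted p = 0.0480, limma adjusted p = 0.549). That was for its brightest probe set, and the dimmer 202988_s_at and 202989_at gave 0.41 and -0.10. Without the second combination array these dimmer probe sets gave 0.16 and 0.016. For RGS2 the sum was -1.34 against -0.96 (interaction 0.38, 95% confidence interval -0.10 to 0.87). For RGS3 the sum was -0.15 against -0.48, an interaction of -0.34 (95% confidence interval -0.60 to -0.075, unadjusted p = 0.0210, adjusted p = 0.462). For RGS14 the sum of 0.51 and the combination at 0.47 differed by -0.036 (95% confidence interval -0.21 to 0.14). In the fit of all arrays limma called 0 members and 0% of all genes here, with 2 members and 9.06% of all genes at an unadjusted p under 0.05. That background depended on the arrays kept. Without the first combination array the fit did call genes for the interaction, though not RGS1 or RGS3. The interaction of RGS1 was 0.85 without the second combination array and 0.38 without the first. For RGS3 it was -0.26 and -0.42 in this order, and for RGS14 -0.067 and -0.0055. For RGS2 it was 0.53 and 0.24, and it was also 0.24 without the first DMSO array.

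**Figure D3:**
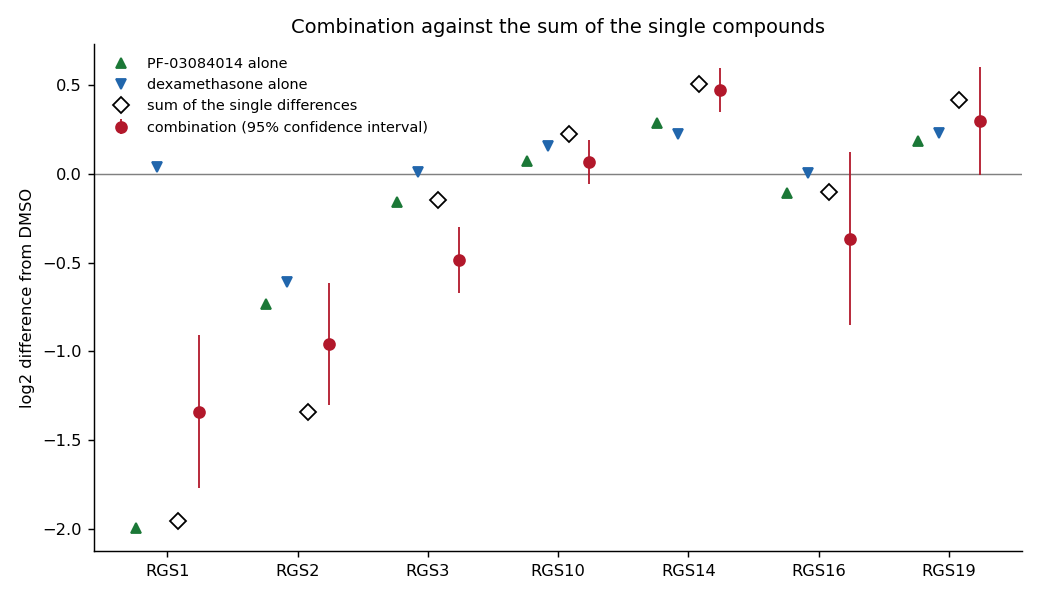
Log2 difference from DMSO (vertical axis) of each RGS gene with PF-03084014 alone, dexamethasone alone, the sum of these, and the combination with its 95% confidence interval. The combination lies above the sum for RGS1 and RGS2, below it for RGS3, and close to it for RGS14. The sums are drawn without an interval, and limma's test of the interaction on all arrays called 0 members.

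Other genes of the RGS family gave little signal. Of 14 further RGS genes listed, 13 had a probe set of their own, 1 of which, for RGS5, had a mean intensity over 100, and limma called 0 of the 13 in any comparison. At an unadjusted p under 0.05 there was 1 with PF-03084014 and 0 with dexamethasone or the combination against DMSO, where 13.2%, 8.96% and 28.4% of all genes had one. RGS5 read 124 and 136 with DMSO, 151 and 138 with PF-03084014, 139.8 and 154 with dexamethasone, and 103 and 222 with the combination. RGS18 and RGS13, neighbours of RGS1 in the same stretch of chromosome 1, read 57.0 to 105 and 14.0 to 31.3 over the arrays, with overlapping groups. RGS21 was not analysed here.

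Receptors carry the signals that RGS proteins shorten. Of 25 receptors of lymphoid cells with a value, 2 rose with PF-03084014 and 0 fell, 0 were called with dexamethasone, and 5 rose and 2 fell in the combination (4 and 1 without its second array), where 0.819%, 0.101% and 11.9% of all genes were called. At an unadjusted p under 0.05 the dexamethasone count was 5, where 8.96% of all genes had one. CCR2, a chemokine receptor, read 4.97 and 9.27 with DMSO, below the floor, 169 and 188 with PF-03084014, 24.3 and 14.3 with dexamethasone, and 273 and 202 with the combination. Its rise from the floor was therefore at least 3.48 log2 units with PF-03084014 (SE 0.26, limma adjusted p = 0.0175) and at least 3.88 with the combination (adjusted p = 0.00329; 4.09 and 0.0107 without its second array). The other that rose with PF-03084014, named after its values were seen, was the thymic homing receptor CCR9, at 2235 and 1869.9 with DMSO and 5505 and 5319 with PF-03084014. In the combination ADORA2B, an adenosine receptor, fell by 2.22 (SE 0.43, adjusted p = 0.0329; -1.79 and 0.0969 without its second array), with 845 and 418 with DMSO and 172 and 94.7 with the combination. CXCR4, the receptor for the chemokine CXCL12, read 11213 and 11557 with DMSO and rose in the combination by 0.21 (SE 0.037, adjusted p = 0.0243; 0.22 and 0.0347 without its second array). CCR7, a receptor for homing to lymph nodes, read 783.7 and 757 with PF-03084014 and 479 and 463 with the combination, a difference of -0.71 (SE 0.088, adjusted p = 0.0281; -0.68 and 0.0692 without the second combination array).

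The G proteins themselves couple the receptors to their effectors. With PF-03084014 and with dexamethasone, limma called 0 of 13 G alpha and 0 of 15 G beta and gamma genes. At an unadjusted p under 0.05 there were 1 and 2 with PF-03084014, and 1 and 0 with dexamethasone, where 13.2% and 8.96% of all genes had one. In the combination 1 G alpha gene fell and 0 rose, and 1 G beta or gamma gene rose and 2 fell, where 11.9% of all genes were called. Without the second combination array only GNB4 among these was called (-0.88, limma adjusted p = 0.0474). GNA11, a G alpha subunit of the Gq class, read 232 and 234 with DMSO, 292 and 335 with dexamethasone, and 164 and 161 with the combination, a difference of -0.52 from DMSO (SE 0.11, limma adjusted p = 0.0367; -0.51 and 0.0708 without the second combination array). GNB4 fell by 1.02 (SE 0.15, adjusted p = 0.0148), from 664 and 779 to 390.1 and 323. GNG2 rose by 0.50 (SE 0.085, adjusted p = 0.0233; 0.0725 without the second combination array), from 3483 and 3699 to 5089.8 and 5054. GNAS, the stimulatory G alpha subunit, read 12604 to 15372 on all arrays and was not called.

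Among 13 other regulators of receptors and G proteins, 2 rose and 0 fell in the combination (1 and 0 without its second array), and limma called 0 with either compound alone, where 4 and 1 had an unadjusted p under 0.05. Over all genes the shares were 11.9% called in the combination, and 13.2% and 8.96% at an unadjusted p under 0.05 with PF-03084014 and dexamethasone. GPSM3, which binds inactive G alpha of the Gi class, rose by 0.49 (SE 0.058, limma adjusted p = 0.00925; 0.54 and 0.0205 without the second combination array), from 1472 and 1387 to 2076 and 1946. GPSM2, of the same family, stood in the combination at -0.42 against PF-03084014 (SE 0.058, adjusted p = 0.0331; -0.43 and 0.0711 without the second combination array). Of 29 effectors, 4 rose and 2 fell in the combination (3 and 2 without its second array), and limma called 0 with either compound alone, where 10 and 5 had an unadjusted p under 0.05, against the same shares of all genes of 11.9%, 13.2% and 8.96%. PIK3R5, a subunit of the phosphoinositide 3-kinase driven by G beta and gamma, rose by 1.12 (SE 0.24, adjusted p = 0.0423), with 262 and 296 with DMSO and 470.1 and 778 with the combination, and without the second combination array it was 0.76 (adjusted p = 0.0310). PLCB1, a phospholipase that Gq activates, fell by 0.68 (SE 0.11, adjusted p = 0.0192; -0.81 and 0.0213 without the second combination array), from 1252 and 1314 to 730.5 and 872. ADCY3, an adenylyl cyclase, stood in the combination at -0.41 against PF-03084014 (SE 0.052, adjusted p = 0.0290; -0.43 and 0.0378 without the second combination array). The list medians in the combination were 0.15 for G alpha, -0.060 for G beta and gamma, -0.0053 for receptors, -0.049 for other regulators and 0.18 for effectors, against 0.064 over all genes.

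**Figure D4:**
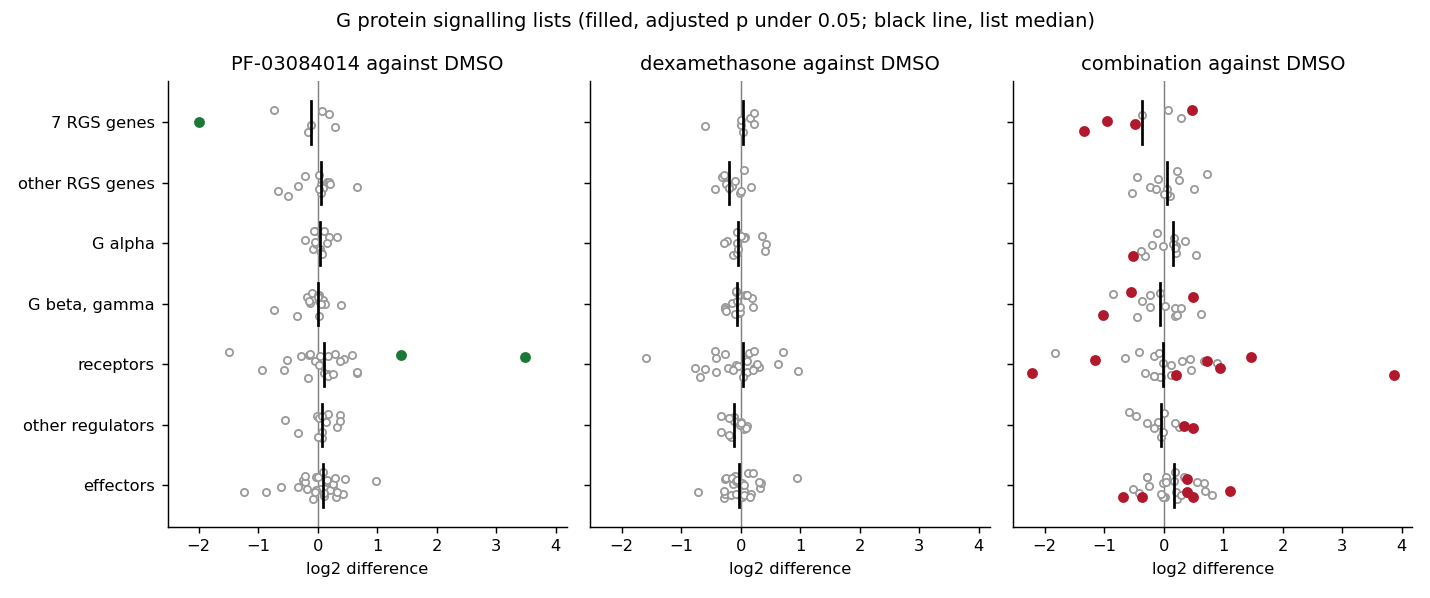
Log2 difference from DMSO (horizontal axis) of every gene of the G protein signalling lists in the 3 treatments; filled points have a limma adjusted p under 0.05 over all genes and the black line is the list median. With PF-03084014 the filled points are RGS1, CCR2 and CCR9, with dexamethasone there are 0, and with the combination they are spread over most lists in both directions.

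The genes whose values followed those of RGS1 most closely over the 8 arrays, among 530 genes with a mean intensity over 100 and group means spanning at least 1 log2 unit, were ARHGAP29, WNK2 and GIMAP1, with Pearson r of 0.982, 0.975 and 0.967. GIMAP1 read 555 and 525 with DMSO, 239 and 245 with PF-03084014, 559 and 604 with dexamethasone, and 265 and 246 with the combination. WNK2 differed from RGS1 in its dexamethasone arrays, at 1597 and 1427 against 816 and 932 with DMSO. For RGS2 the closest of 531 genes were ADAM19, GBP2 and MT2A, with r of 0.972, 0.968 and 0.949. ADAM19 read 427 and 232 with DMSO, 143 and 109.9 with PF-03084014, 150.0 and 170.3 with dexamethasone, and 135 and 99.0 with the combination, so that it shared with RGS2 the gap between the DMSO arrays. These correlations are over arrays of 4 treatments and describe these libraries. The other members did not span 0.5 log2 units between group means, or were too dim for this comparison.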

How the data were processed

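Messenger RNA of 8 samples of CUTLL1 was labelled with an Affymetrix 3' IVT kit, per the labels' protocols. The deposited intensity values of 54675 probe sets are on a linear scale, per the values themselves; no source used here states how the probe sets were summarised, background-corrected or normalized, and the number of arrays limits the precision. Of the probe sets 41097 carried 1 gene, 1801 several and 11777 none in the platform annotation; those with several or none were left out. Intensities under 16 were set to 16 and log2 was taken. For each of 19775 genes, 1 probe set was kept, that of the highest log2 mean, with no filter on dim genes, and a second fit used all 41097 probe sets. The alternatives covered normalization, floor, pseudocount, dim genes, choice of probe set, intensity trend, replicate block, the groups fitted and each array left out.

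Tests used limma 3.58.1 in R 4.3.3: 1 fit of all 8 arrays, 4 group means, eBayes with an intensity trend, 4 residual degrees of freedom, 6 contrasts, two-sided, Benjamini-Hochberg over all genes or probe sets, called under 0.05. The code was tested on simulated data. Deviations of same-numbered arrays correlated at -0.010 to 0.082. These values show no strong pairing by number, but they cannot exclude a weak pairing. The genes, lists and rules were chosen with earlier results of these data known. Named were all 7 genes, the called gene of each list that rose or fell most in each contrast, the brightest of the G alpha, receptor and other RGS lists, and the 3 genes most correlated with each member that was bright and spanned at least 0.5 log2 units. Some listed genes, such as RGS21 and ARRB2, were not analysed here.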

Additional observations from a re-analysis of the deposited data

Results flagged for a closer look

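RGS10 was singled out because both arrays with PF-03084014 alone lay above both DMSO arrays, while both combination arrays lay below both dexamethasone arrays. The difference between these effects was -0.16 log2 units (95% confidence interval -0.33 to 0.018), and limma's test of the interaction had an adjusted p of 0.579, so the effects of PF-03084014 with and without dexamethasone were not shown to differ.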

How the results depend on the processing

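With 2 arrays per group the calls depended on the setting more than the differences did. For PF-03084014 against DMSO 1 RGS gene was called; 0 were with the arrays shifted to 1 median or with only the groups compared, and 2 with a pseudocount of 16 or without dim genes. For the combination against DMSO 4 were called, 2 with the shift and 0 with only the groups compared. Against PF-03084014 the 0 became 1 without dim genes. Against dexamethasone 3 were called, 0 with the shift or only the groups compared and 1 with probe sets averaged. With 1 array left out these counts were 0 to 1, 1 to 5, 0 to 2 and 0 to 4, and those of probe sets 0 to 1, 0 to 5, 0 to 2 and 0 to 5. The number of all genes called also rose or fell with the array left out, so these ranges are not particular to the RGS genes. The causes were not tested, and the smaller fits also held fewer samples. The replicate block left the gene counts at 1, 0, 4, 0 and 2 and took the probe set count for PF-03084014 from 1 to 0.

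No value that turned sign had been called. With dexamethasone, RGS3 was -0.018 after quantile normalization, and RGS1, RGS3 and RGS16 were -0.014, -0.21 and -0.20 with probe sets averaged. Leave-out fits gave RGS1 -0.028 to 0.10, RGS3 -0.022 to 0.046 and RGS16 -0.17 to 0.18 there, and RGS16 -0.22 to 0.0055 with PF-03084014. RGS10 in the combination was -0.030 after the shift. Against PF-03084014, RGS10 was 0.022 after quantile normalization, 0.14 without _x_at and _s_at probe sets and -0.056 to 0.051 in leave-out fits, RGS16 was 0.25 without those probe sets, and RGS19 ran from -0.077 to 0.30. Against dexamethasone, RGS19 was -0.048 after the shift and -0.12 to 0.26 in leave-out fits, and RGS16 was 0.062 with probe sets averaged. In the interaction, RGS14 was 0.0060 after quantile normalization and -0.082 to 0.010 in leave-out fits, RGS16 was 0.16 with probe sets averaged and 0.21 without _x_at and _s_at, and RGS19 ran from -0.31 to 0.072.

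The shift to 1 median moved the median interaction of all genes to -0.11 and changed the share of called genes that were higher from 57.4% to 25% (PF-03084014), from 85% to 100% (dexamethasone, 2 genes after the shift), from 53.8% to 39.7% (combination) and from 45.1% to 25.2% (combination against dexamethasone). Over all genes the 162 calls with PF-03084014 became 24 after the shift and 425 without dim genes, and the 2360 with the combination 1057 and 3149. RGS16 was too dim for the fit without dim genes, and RGS19 has only an _s_at probe set, so both were not run there.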
